A study of Mus musculus with 16 samples.

Results

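Bmp2, Bmp4, Bmp5 and Bmp7, which encode BMP ligands, and Smad6, Id1, Id2, Id3, Msx1 and Msx2, known direct targets of BMP signalling, were followed across 4 groups of mouse embryoid bodies, which are floating balls of differentiating embryonic stem cells. The 10 genes were found by their symbols among 28432 loci, 23289 of which carry a gene name, and each symbol matched a single locus. All 10 passed the filter on low counts. The stem cells carry an Rx:GFP knock-in, a reporter of the eye field transcription factor gene Rax, and were aggregated by SFEBq, a serum-free quick-reaggregation culture, in GMEM with 5% knockout serum replacement, with 2% Matrigel from day 1. RNA was sequenced on day 6. In the T48h rescue and the T12h rescue, doxycycline was given from T48h or T12h to induce human WDR5 in cells of Wdr5 knockout clone #3. The KO group is the same clone without doxycycline, and WT is the untreated line with wild-type Wdr5. The knockout and both rescues therefore rest on a single clone. No doxycycline-treated WT group was analysed here. Wdr5 encodes a WD40-repeat subunit of the COMPASS/MLL histone methyltransferase complexes.

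BMPs are secreted dimers that bind pairs of type I and type II serine/threonine kinase receptors, which phosphorylate Smad1, Smad5 and Smad9. These enter the nucleus with Smad4 and switch on target genes. Smad6 is an inhibitory Smad that is itself a target and feeds back on the receptors, the Id proteins bind basic helix-loop-helix factors and keep them off DNA, and Msx1 and Msx2 are homeobox repressors. In early embryos BMP signalling restrains neural induction and favours epidermis and mesoderm, and at intermediate levels it acts on the neural plate border and neural crest.

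The promoters of 4 targets are shown, since these genes carried the contrasts between groups: Smad6, Msx1 and Msx2 had their highest levels in the T48h rescue, and Id2 had the largest decrease of the targets in the KO against WT. Each run is 280 bases, from 250 bases before the start of transcription to 30 after it, from RefSeq on GRCm38.p6, which shares mm10 coordinates, and is read 5′ to 3′ on the strand of the gene. Capitals mark 3 motifs searched on both strands: GTCTAGAC, the SMAD-binding palindrome, and GGCGCC and GGAGCC, GC-rich elements described in BMP target genes. The motifs do not overlap in these runs and were chosen with the levels known.
Smad6 promoter, chr9:64022030-64022309, minus strand: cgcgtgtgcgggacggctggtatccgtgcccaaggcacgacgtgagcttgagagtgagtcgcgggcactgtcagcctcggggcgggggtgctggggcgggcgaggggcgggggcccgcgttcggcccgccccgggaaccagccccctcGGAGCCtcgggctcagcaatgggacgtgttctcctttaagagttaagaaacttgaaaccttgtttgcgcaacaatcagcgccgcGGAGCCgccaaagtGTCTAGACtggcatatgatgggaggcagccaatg
Msx1 promoter, chr5:37824556-37824835, minus strand: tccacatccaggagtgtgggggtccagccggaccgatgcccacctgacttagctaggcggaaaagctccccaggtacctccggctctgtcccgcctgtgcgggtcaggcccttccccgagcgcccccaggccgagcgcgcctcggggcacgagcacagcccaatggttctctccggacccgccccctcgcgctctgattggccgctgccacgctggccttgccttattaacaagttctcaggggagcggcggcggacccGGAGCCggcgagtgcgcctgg
Msx2 promoter, chr13:53472751-53473030, minus strand: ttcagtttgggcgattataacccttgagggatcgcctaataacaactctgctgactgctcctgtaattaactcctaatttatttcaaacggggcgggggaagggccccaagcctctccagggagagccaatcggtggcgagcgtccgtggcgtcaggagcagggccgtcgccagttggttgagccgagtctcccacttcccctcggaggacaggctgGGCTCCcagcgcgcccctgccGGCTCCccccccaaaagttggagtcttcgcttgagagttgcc
Id2 promoter, chr12:25096063-25096342, minus strand: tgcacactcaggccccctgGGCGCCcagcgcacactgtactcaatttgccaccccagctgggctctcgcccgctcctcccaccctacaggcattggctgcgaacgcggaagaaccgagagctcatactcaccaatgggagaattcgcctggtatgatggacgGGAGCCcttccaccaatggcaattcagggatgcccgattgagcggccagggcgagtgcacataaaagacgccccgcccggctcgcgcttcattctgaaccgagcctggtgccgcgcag
The table used held the window of 7 of the 10 genes, all but Bmp2, Bmp7 and Id1. Counting the first transcribed base as 1, with no position 0, the palindrome lies at -4 to 4 in Smad6, and it is held by 0.192% of the 32851 mouse promoter windows of the same length. GGCGCC lies at -231 to -226 in Id2 and is held by 10.9% of windows. GGAGCC is held by 6 of the 7 members' windows, all but that of Bmp5, against 28.8% of all windows. It occurs at -102 to -97 and -18 to -13 in Smad6, at -33 to -28 and -12 to -7 in Msx2 on the other strand, at 10 to 15 in Msx1 and at -88 to -83 in Id2. The shares over all windows were not matched for base composition, and no enrichment was tested. A match describes the letters of the window and is not a measured binding site.

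The 16 samples are 2 biological duplicates per group in 2 technical runs each, and the technical columns were summed to 8 libraries, called a and b within a group, of 32476669 to 65687430 counts in named genes. Nothing in the labels says that duplicates came from separate cultures, so p-values measure only the spread between these libraries. Wdr5 reached 280.0 and 294 counts scaled to library size (CPM) in the T48h rescue, 329 and 337 CPM in the T12h rescue, 32.5 and 28.4 CPM in the KO and 186 and 187 CPM in WT, so the KO was lowest, as labelled. Whether reads of the induced human gene were counted at the mouse locus was not tested. In bulk RNA, fewer cells of a type and less RNA per cell cannot be told apart.

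Across the 10 genes, the T48h rescue stood apart: ligands, the inhibitor Smad6, Id1 and both Msx genes had their highest levels there, Bmp7 without passing the test against WT, while Id2 and Id3 were not. A gene was called where the edgeR quasi-likelihood test gave a Benjamini-Hochberg adjusted p under 0.05 over the 16130 genes tested. Against the T12h rescue, 8 of the 10 genes were higher in the T48h rescue and 1, Id2, was lower, where 24.9% of all genes were called higher and 25.3% lower. Against the KO, all 10 were higher in the T48h rescue and 0 lower, where 34.2% of all genes were higher and 33.2% lower. Against WT, 7 were higher in the T48h rescue and 0 lower, beside 23.9% of all genes higher and 23.4% lower. The median log2 fold change of the 10 genes was 3.25 against the T12h rescue, 2.49 against the KO and 3.27 against WT, and the medians over all genes tested were -0.03, -0.003 and -0.04.

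The other 3 comparisons split the genes both ways. The T12h rescue had 4 genes higher and 4 lower than the KO, with 32.8% of all genes higher and 32.1% lower. Of the 20 alternatives, 10 gave the same split. A further 4 added Bmp7 to the lower genes (4 higher and 5 lower), and 6 added Bmp7 and Id1 (4 higher and 6 lower). The T12h rescue had 3 higher and 3 lower than WT, with 7.9% of all genes higher and 6.11% lower. Over the 12 alternatives other than leaving out a library, 4 to 6 genes were called there, with 2 higher and 2 lower by limma-voom. The KO had 4 higher and 4 lower than WT, with 31.7% of all genes higher and 32.4% lower. In this comparison and in the main fit of the T12h rescue against the KO, the shares lie near those of all genes. The comparisons share libraries, and their counts are not independent of each other.

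**Figure D1:**
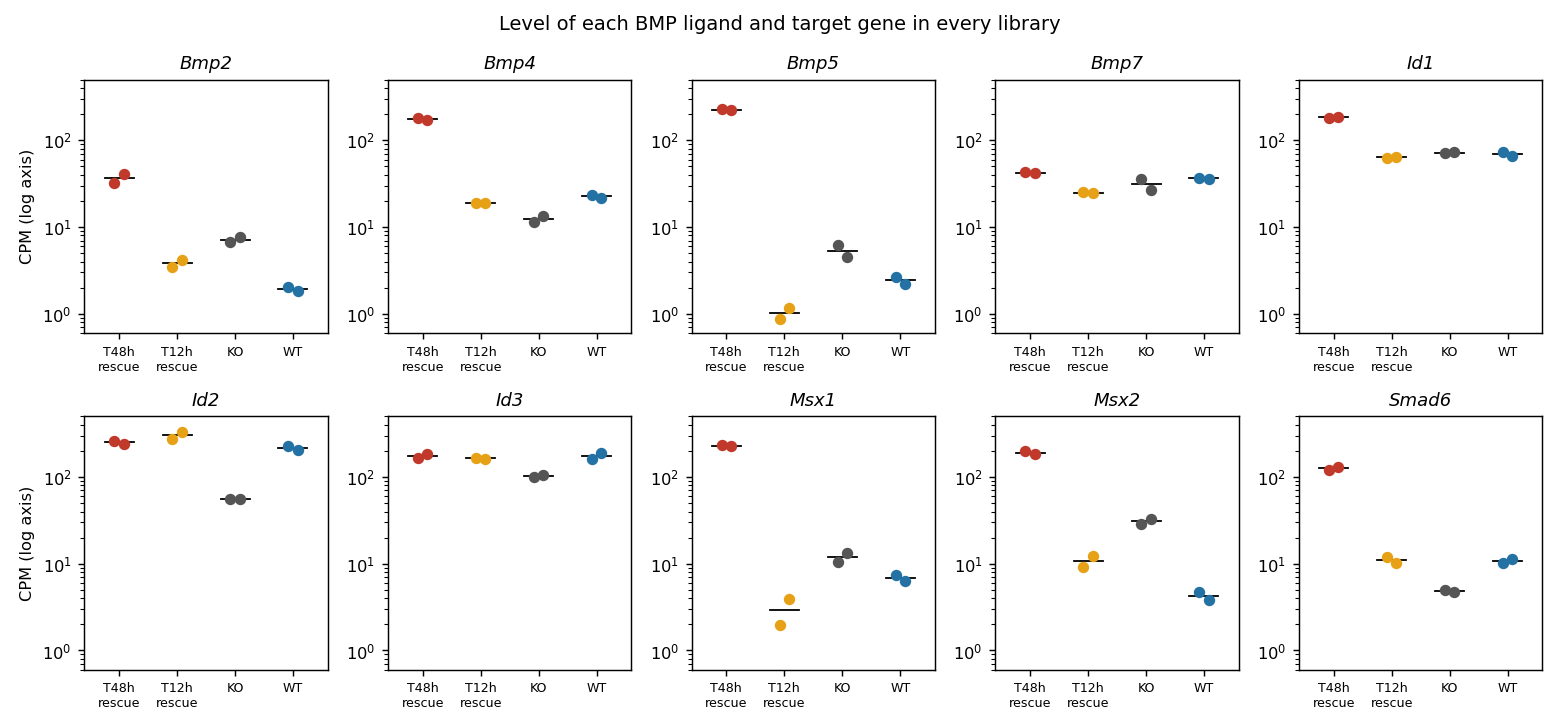
Level of each of the 10 genes in CPM on a log axis, with 1 point per library (2 per group) and a line at the group mean, for the T48h rescue, the T12h rescue, the KO and WT from left to right. Bmp5 reached 229 and 223 CPM in the T48h rescue and stayed at or below 6.24 CPM in the other groups, while Id2 was low in the KO alone, at 55.2 and 55.3 CPM.

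Bmp4 (chr14:46379524-46390599), the ligand best known for restraining neural fate, had 181 and 174 CPM in the T48h rescue, 19.0 and 18.8 CPM in the T12h rescue, 11.4 and 13.5 CPM in the KO and 23.3 and 21.8 CPM in WT. The 4 groups did not overlap, and the KO was the lowest of them. It was 14.4-fold higher in the T48h rescue than in the KO (log2 fold change 3.84 ± 0.11 SE, edgeR adjusted p = 7.72e-12) and 7.87-fold higher than in WT. The T12h rescue was 1.53-fold higher than the KO (edgeR adjusted p = 0.000155) and did not pass the test against WT (log2 fold change -0.26 ± 0.10 SE, edgeR adjusted p = 0.113). The KO was 1.82-fold lower than WT (log2 fold change -0.87 ± 0.10 SE, edgeR adjusted p = 7.21e-06). The Bmp4 locus overlaps the annotated genes Gm15217 and Gm15222, the second of them antisense, and without a stated strand setting their reads cannot be told apart.

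Bmp2 (chr2:133553199-133562885), the ligand closest to Bmp4 and used in heart induction, had 32.2 and 41.3 CPM in the T48h rescue, 3.44 and 4.21 CPM in the T12h rescue, 6.69 and 7.63 CPM in the KO and 2.05 and 1.81 CPM in WT. The groups did not overlap, and here WT was the lowest, so Bmp2 and Bmp4 took opposite directions in the KO. Bmp2 was 3.69-fold higher in the KO than in WT (log2 fold change 1.88 ± 0.21 SE, edgeR adjusted p = 4.37e-06). It was 5.15-fold higher in the T48h rescue than in the KO and 1.87-fold lower in the T12h rescue than in the KO (edgeR adjusted p = 1.57e-07 and 0.00117). The T12h rescue was 1.97-fold above WT (edgeR adjusted p = 0.00835), a call lost with limma-voom (adjusted p = 0.118), on log2(FPKM + 1) (adjusted p = 0.0738), without library b of the T12h rescue (adjusted p = 0.0774) and without library b of WT (adjusted p = 0.0732).

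Bmp5 (chr9:75775365-75900314), a ligand of the Bmp7 subgroup whose loss gives the short-ear mouse, had 229 and 223 CPM in the T48h rescue, 0.870 and 1.17 CPM in the T12h rescue, 6.24 and 4.48 CPM in the KO and 2.66 and 2.2 CPM in WT. The T48h libraries exceeded every other library, and the T12h libraries were below all others. The difference between the rescues was 224-fold (log2 fold change 7.80 ± 0.18 SE, edgeR adjusted p = 1.57e-12), the largest of any of the 10 genes in the 6 comparisons. Bmp5 was 2.24-fold higher in the KO than in WT (edgeR adjusted p = 7.21e-05) and 5.41-fold lower in the T12h rescue than in the KO (edgeR adjusted p = 1.5e-07). It was 2.41-fold lower in the T12h rescue than in WT (edgeR adjusted p = 0.00227), a call lost with limma-voom (adjusted p = 0.0623) and on log2(FPKM + 1) (adjusted p = 0.0577). The lowest T12h library rests on 47 fragments. The Bmp5 locus overlaps Gm47723 and the antisense gene Gm26903, with the same limit as for Bmp4.

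Bmp7 (chr2:172869687-172940293), a ligand needed for mouse eye development, varied least among the ligands. It had 42.8 and 41.9 CPM in the T48h rescue, 25.2 and 24.8 CPM in the T12h rescue, 35.6 and 26.6 CPM in the KO and 37.2 and 35.9 CPM in WT. Its KO libraries were wider apart than those of any other group. The T48h rescue was 1.69-fold above the T12h rescue (log2 fold change 0.76 ± 0.13 SE, edgeR adjusted p = 0.000371). It was 1.36-fold above the KO (log2 fold change 0.44 ± 0.13 SE, edgeR adjusted p = 0.00993), a call lost under upper-quartile scaling (log2 fold change 0.30, adjusted p = 0.056) and without library b of the KO (0.26, adjusted p = 0.104). The T12h rescue was 1.46-fold below WT (edgeR adjusted p = 0.0161), a call lost without either library of the T12h rescue (adjusted p = 0.077 and 0.0828) or library a of WT (adjusted p = 0.102). Neither the KO against WT (log2 fold change -0.23 ± 0.13 SE, edgeR adjusted p = 0.152) nor the T12h rescue against the KO (-0.32 ± 0.13 SE, edgeR adjusted p = 0.0509) passed the test; without library a of the KO the first was called at -0.47 (adjusted p = 0.0109). The second was called in 10 of the 20 alternatives, among them RLE and upper-quartile scaling, DESeq2 and limma-voom (adjusted p = 0.00484 to 0.0426 over the 10). The T48h rescue against WT gave 0.21 ± 0.13 SE (edgeR adjusted p = 0.209).

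The make-up of the ligand RNA differed between groups. In FPKM, which corrects for transcript length, the 4 ligands summed to 170.3 and 170.4 in the T48h rescue, 21.9 and 21.9 in the T12h rescue, 26.9 and 23.9 in the KO and 29.5 and 27.8 in WT. The summed level thus lay between 21.9 and 29.5 FPKM in 3 of the groups, although single ligands moved in opposite directions among them. Bmp7 made up 11.6% and 11.3% of the sum in the T48h rescue, 53.7% and 52.6% in the T12h rescue, 64.5% and 54.9% in the KO and 58.8% and 59.9% in WT. Bmp5 made up 33.1% and 33.7% in the T48h rescue, 1.00% and 1.31% in the T12h rescue, 5.83% and 5.64% in the KO and 2.41% and 2.06% in WT. Bmp4 and Bmp5 together were thus most of the ligand RNA of the T48h rescue, and Bmp7 was the most abundant ligand in each of the other groups.

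**Figure D2:**
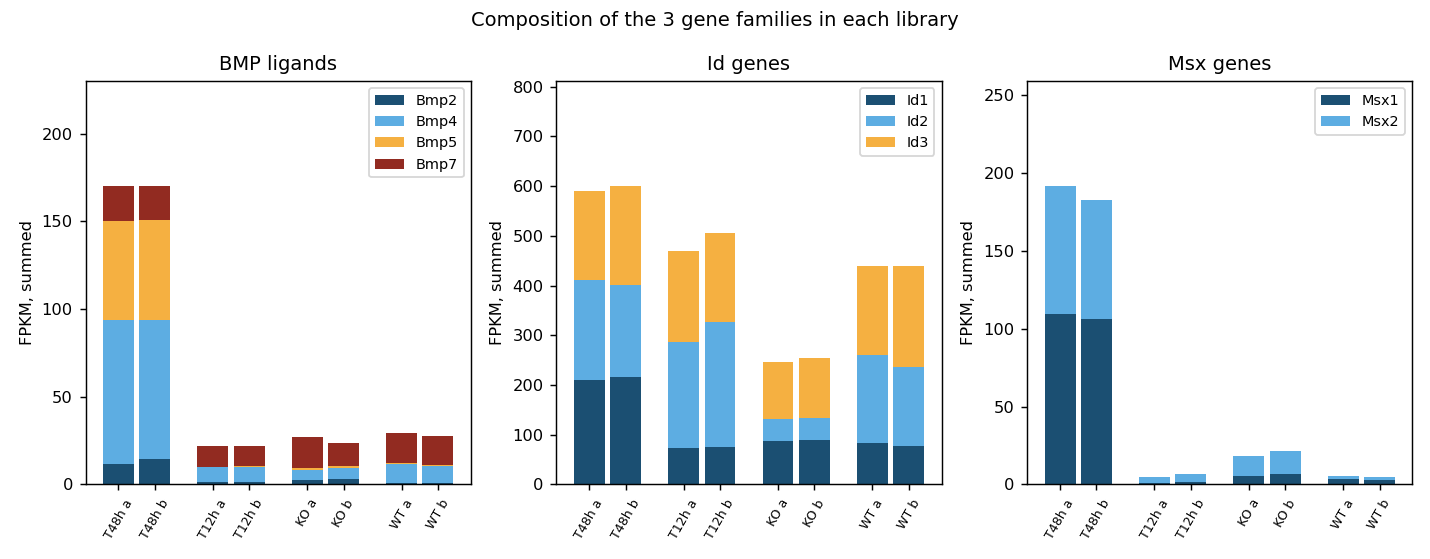
Summed FPKM of the 4 ligands, the 3 Id genes and the 2 Msx genes in each of the 8 libraries, stacked by gene, for the T48h rescue, the T12h rescue, the KO and WT from left to right. The ligand and Msx sums of the T48h rescue are above those of all other groups, while the Id sum is lowest in the KO, at 246 and 255 FPKM.

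Smad6 (chr9:63953076-64022059), the inhibitory Smad of the pathway, followed Bmp4 in its order of groups except for WT and the T12h rescue. It had 121 and 132 CPM in the T48h rescue, 12.05 and 10.2 CPM in the T12h rescue, 5.04 and 4.72 CPM in the KO and 10.3 and 11.2 CPM in WT. The T12h and WT libraries overlapped, the KO lay below both and the T48h rescue above all. Smad6 was 25.9-fold higher in the T48h rescue than in the KO (log2 fold change 4.69 ± 0.13 SE, edgeR adjusted p = 1.03e-11) and 11.8-fold higher than in WT. It was 2.2-fold lower in the KO than in WT (log2 fold change -1.13 ± 0.13 SE, edgeR adjusted p = 5.5e-06) and 2.28-fold higher in the T12h rescue than in the KO (edgeR adjusted p = 2.91e-06). The T12h rescue against WT gave a log2 fold change of 0.05 ± 0.12 SE (edgeR adjusted p = 0.84), with a sign that changed between alternatives. This gene holds the palindrome across the start of transcription in the run shown above. The Smad6 locus carries 2 groups of transcription starts, of which 1 window was shown, and which start was used in these cells was not tested.

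Among the Id genes, Id1 (chr2:152736274-152737410) did not share the pattern of Id2 and Id3. Id1 had 182 and 187 CPM in the T48h rescue, 63.0 and 64.6 CPM in the T12h rescue, 71.8 and 72.5 CPM in the KO and 72.5 and 66.4 CPM in WT. The T48h libraries were above and the T12h libraries below all others. The T48h rescue was at 2.56 times the KO (log2 fold change 1.36 ± 0.08 SE, edgeR adjusted p = 4.5e-09), 2.66 times WT and 2.90 times the T12h rescue. The KO and WT libraries overlapped, with a log2 fold change of 0.05 ± 0.08 SE (edgeR adjusted p = 0.554). The T12h rescue against the KO gave -0.18 ± 0.08 SE (edgeR adjusted p = 0.056). It was called in 6 of the 20 alternatives, among them RLE and upper-quartile scaling and DESeq2 (adjusted p = 0.0118 to 0.0219 over the 6).

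Id2 (chr12:25093799-25096092), which in neural tissue holds back proneural factors, had 263 and 242 CPM in the T48h rescue, 278 and 329.8 CPM in the T12h rescue, 55.2 and 55.3 CPM in the KO and 229 and 207 CPM in WT. The KO was below every other library. Id2 was 3.94-fold lower in the KO than in WT (log2 fold change -1.98 ± 0.09 SE, edgeR adjusted p = 1.03e-09), 4.58-fold higher in the T48h rescue than in the KO and 5.50-fold higher in the T12h rescue than in the KO (edgeR adjusted p = 3.33e-10 and 1.37e-10). The T12h rescue was 1.39-fold above WT (edgeR adjusted p = 0.00284), and the T48h rescue against WT missed the threshold (log2 fold change 0.21 ± 0.09 SE, edgeR adjusted p = 0.0643) but was called by DESeq2 (0.22, adjusted p = 0.0376). The T48h rescue was 1.20-fold below the T12h rescue (log2 fold change -0.27 ± 0.09 SE, edgeR adjusted p = 0.0239). This call was lost with limma on FPKM (adjusted p = 0.0639 and 0.0618 for pseudocounts 1 and 0.1), without library b of the T12h rescue (adjusted p = 0.140) and without library b of the T48h rescue (adjusted p = 0.123). Without library a of the T12h rescue the value was -0.43.

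Id3 (chr4:136143822-136145392) showed the KO as the low group in the same way but over a smaller range. It had 165 and 185 CPM in the T48h rescue, 167 and 164 CPM in the T12h rescue, 101 and 105 CPM in the KO and 163 and 188 CPM in WT. The rescues and WT overlapped, and the KO lay below them. Id3 was 1.71-fold lower in the KO than in WT (log2 fold change -0.77 ± 0.09 SE, edgeR adjusted p = 3.86e-06), 1.71-fold higher in the T48h rescue than in the KO and 1.61-fold higher in the T12h rescue than in the KO (edgeR adjusted p = 3.37e-06 and 1.07e-05). Neither rescue passed the test against WT, with log2 fold changes of -0.0004 ± 0.08 SE for the T48h rescue (edgeR adjusted p = 1) and -0.08 ± 0.08 SE for the T12h rescue (edgeR adjusted p = 0.59).

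Per length, the Id genes were the most abundant of the 10 genes in every group, but their order changed. In the T48h rescue Id1 led with a mean of 213 FPKM, ahead of Id2 at 193 and Id3 at 190.3 FPKM, whose libraries overlapped. In the T12h rescue Id2 led at 233 FPKM, ahead of Id3 at 181 and Id1 at 73.8 FPKM. In the KO Id3 led at 118 FPKM, ahead of Id1 at 87.9 and Id2 at 44.6 FPKM, and in WT Id3 led at 191 FPKM, ahead of Id2 at 167 and Id1 at 80.4 FPKM.

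Msx1 (chr5:37820394-37824644) encodes a homeobox repressor of the neural plate border, neural crest and limb. It had 231 and 225 CPM in the T48h rescue, 1.98 and 3.90 CPM in the T12h rescue, 10.5 and 13.2 CPM in the KO and 7.43 and 6.26 CPM in WT. The groups did not overlap. Msx1 was 19.4-fold higher in the T48h rescue than in the KO (log2 fold change 4.28 ± 0.19 SE, edgeR adjusted p = 5.48e-10), 33.3-fold higher than in WT and 78.8-fold higher than in the T12h rescue. It was 4.06-fold lower in the T12h rescue than in the KO (edgeR adjusted p = 2.51e-06) and 1.71-fold higher in the KO than in WT (log2 fold change 0.78 ± 0.20 SE, edgeR adjusted p = 0.00425). The T12h rescue was 2.37-fold lower than WT (log2 fold change -1.24 ± 0.23 SE, edgeR adjusted p = 0.00279), a log2 value that was -0.82 without library a of the T12h rescue.

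Msx2 (chr13:53466881-53472780), its paralog with overlapping roles in skull, skin and heart development, had 198 and 184 CPM in the T48h rescue, 9.11 and 12.2 CPM in the T12h rescue, 29.1 and 33.2 CPM in the KO and 4.69 and 3.83 CPM in WT. The order matched that of Bmp2, with WT lowest and no overlap between groups. Msx2 was 44.8-fold higher in the T48h rescue than in WT (log2 fold change 5.48 ± 0.16 SE, edgeR adjusted p = 1.24e-11) and 6.15-fold higher than in the KO. It was 7.28-fold higher in the KO than in WT (log2 fold change 2.86 ± 0.15 SE, edgeR adjusted p = 3.69e-09), the largest increase of the 10 genes in that comparison. The T12h rescue was 2.92-fold lower than the KO and 2.49-fold higher than WT (edgeR adjusted p = 3.9e-07 and 0.000145). Of the summed Msx FPKM, Msx1 made up 57.0% and 58.1% in the T48h rescue, 19.8% and 26.6% in the T12h rescue, 29.1% and 31.1% in the KO and 64.3% and 64.8% in WT, so the balance of the paralogs differed between groups as well as their level.

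**Figure D3:**
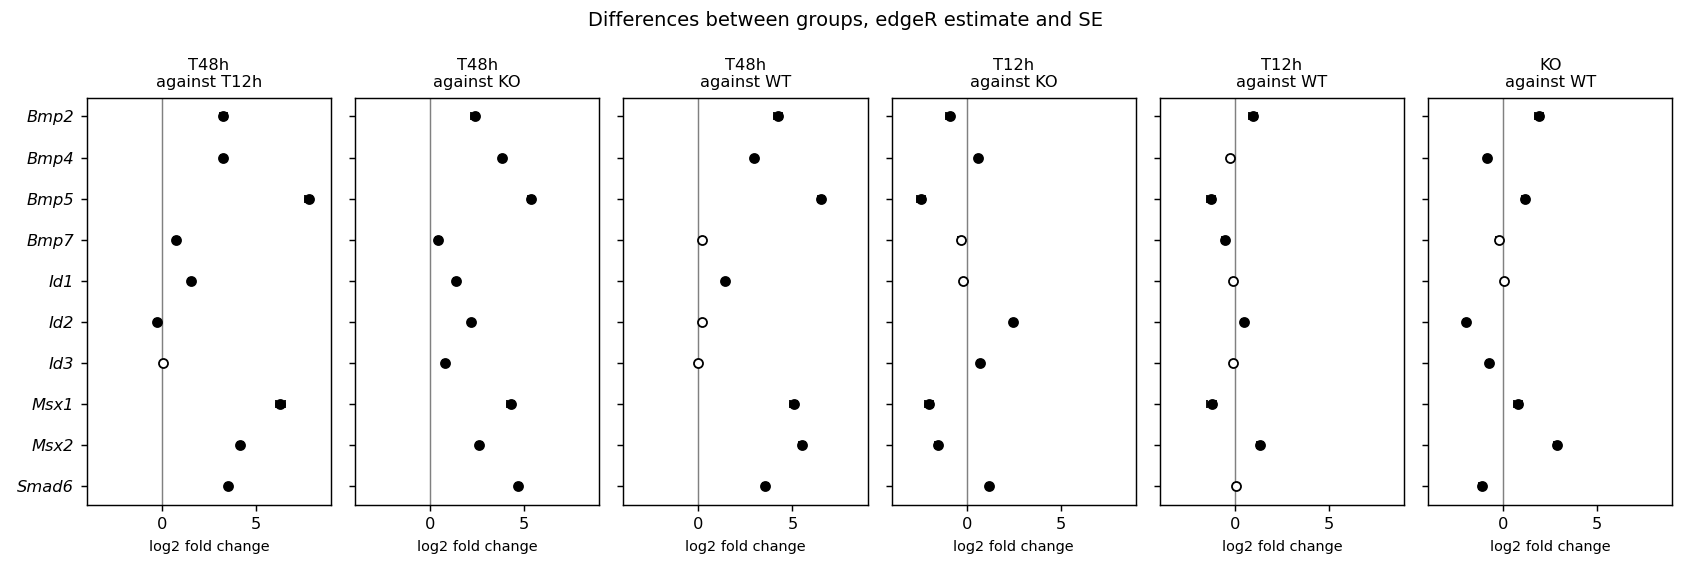
Difference of each of the 10 genes in the 6 comparisons as the edgeR log2 fold change with its SE, filled where the adjusted p over all genes tested is under 0.05. In the comparison of the T48h rescue with the KO all 10 points lie above 0, from 0.44 for Bmp7 to 5.37 for Bmp5, while the KO against WT has points on both sides, from -1.98 for Id2 to 2.86 for Msx2.

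The order of the groups sorted the genes. Bmp5, Msx1 and Id1 ran from the T48h rescue over the KO and WT down to the T12h rescue. For Id1 the KO and WT overlapped, and the T12h rescue was called against neither (edgeR adjusted p = 0.056 and 0.34). Bmp7 ran from the T48h rescue over WT and the KO down to the T12h rescue, with the KO called against neither WT nor the T12h rescue. Bmp2 and Msx2 ran from the T48h rescue over the KO and the T12h rescue down to WT. Bmp4, Smad6, Id2 and Id3 had the KO as their lowest group. Across the whole table, the gene closest to each member in log2 CPM over the 8 libraries, among 10378 named genes with a mean of at least 5 CPM, was Ralb for Bmp2, Dact3 for Bmp4, Aebp1 for Bmp5, Slc38a4 for Id1, H2afy3 for Id2, Thap3 for Id3, Has2 for Msx1, Frem1 for Msx2 and Fbn1 for Smad6, with Pearson r of 0.993 to 0.999, and Zbtb21 for Bmp7 at 0.984. The libraries fall into 4 groups, so r mainly describes shared group levels. The type II receptor gene Bmpr2 was second closest to Id1 and Bmp5 second closest to Msx1.

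Markers of several other cell types were also high in the T48h rescue. All 7 cardiac mesoderm markers measured were higher in the T48h rescue than in each other group. Of all genes, 34.2% were called higher there than in the KO, 23.9% than in WT and 24.9% than in the T12h rescue. The 7 markers summed to 2728 and 2679 CPM in the T48h rescue, 97.1 and 113 CPM in the T12h rescue, 230 and 242 CPM in the KO and 98.5 and 100.3 CPM in WT. Gata4 alone made up 211 and 220 CPM of the KO sum, 81.6 and 91.0 CPM of the T12h sum and 58.3 and 62.1 CPM of the WT sum. The KO had 4 of the 7 higher and 2 lower than WT, beside 31.7% and 32.4% of all genes. Mef2c had 1.43 and 2.08 CPM in the KO against 24.5 and 23.2 CPM in WT. The 6 mesenchyme markers summed to 818 and 884 CPM in the T48h rescue, 125 and 98.7 CPM in the T12h rescue, 20.1 and 17.6 CPM in the KO and 75.4 and 73.1 CPM in WT. The 6 endothelial markers summed to 778 and 745 CPM in the T48h rescue and 93.2 to 148 CPM in the others. Kdr alone made up 130 and 124 CPM of this sum in the T12h rescue and 85.1 and 82.3 CPM in WT, but 2.59 and 1.19 CPM in the KO. The KO had 5 endothelial markers higher and 1 lower than WT, beside 31.7% and 32.4% of all genes. The 6 neural crest markers summed to 303 and 278 CPM in the T48h rescue and 14.8 to 36.0 CPM in the others. Snai2, at 123 and 106 CPM, and Ets1, at 115 and 106 CPM, made up most of the T48h sum, while Sox10 had 8.88 and 8.50 CPM. The neural crest and mesenchyme lists each had 5 markers higher and 1 lower in the T48h rescue than in the KO, beside 34.2% and 33.2% of all genes. The 6 eye field markers summed to 20.6 and 18.7 CPM in the T48h rescue, 1540 and 1574 CPM in the T12h rescue, 8.70 and 5.15 CPM in the KO and 1365 and 1309 CPM in WT, an order of groups that none of the 10 genes had. The 6 pluripotency markers summed to 709 and 692 CPM in the KO and at most 128 CPM elsewhere, and the 6 surface ectoderm markers to 211 and 208 CPM in the KO and at most 29.3 CPM elsewhere. Epcam alone made up 144 and 142 CPM of the surface ectoderm sum in the KO. Trp63 had 0.556 and 0.486 CPM there, and Krt14 0.425 and 0.674 CPM. Of these 6 markers, 5 were higher and 0 lower in the KO than in WT, beside 31.7% and 32.4% of all genes. The 6 endoderm markers summed to 310.2 and 318 CPM in the T48h rescue, 115 and 141 CPM in the T12h rescue, 354 and 357 CPM in the KO and 110.4 and 108 CPM in WT. The T48h rescue had 2 of them higher and 4 lower than the KO, beside 34.2% and 33.2% of all genes. Against WT it had 4 higher and 1 lower, beside 23.9% and 23.4%. Gata6 alone made up 244 and 254 CPM of the T48h sum, against 24.1 and 23.5 CPM in WT. Sox17 had 25.6 and 23.9 CPM in the T48h rescue, 144 and 153 CPM in the KO and 21.1 and 18.9 CPM in WT. No marker of these lists was at 0 in both libraries of a group, apart from Krt14 in WT. The part of these cell types in the levels of the 10 genes was not tested.

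Of 57 further genes of the pathway, all were found in the table. Of 10 receptor and co-receptor genes, 6 were higher and 1 lower in the T48h rescue than in the KO, beside 34.2% and 33.2% of all genes, and 4 were higher and 4 lower than in WT, beside 23.9% and 23.4% of all genes. Bmpr1b, a type I receptor, had 0.980 and 1.47 CPM in the T48h rescue, 31.8 and 32.4 CPM in the T12h rescue, 0.952 and 0.701 CPM in the KO and 29.4 and 32.4 CPM in WT. Acvrl1, the type I receptor ALK1 of endothelium, had 33.9 and 30.05 CPM in the T48h rescue and 0.264 to 2.39 CPM in the other groups (log2 fold change against the KO 3.88 ± 0.28 SE, edgeR adjusted p = 4.77e-08). Eng, the co-receptor endoglin, was high in both the T48h rescue, at 35.0 and 37.3 CPM, and the KO, at 39.3 and 39.5 CPM, against 2.26 and 2.07 CPM in the T12h rescue and 4.16 and 3.44 CPM in WT. Bmpr1a, the most broadly used type I receptor, was higher in the T48h rescue than in the KO by a log2 fold change of 1.38 ± 0.07 SE (edgeR adjusted p = 1.74e-09).

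Of 10 signal transducers and their intracellular modulators, 7 were higher and 2 lower in the T48h rescue than in the KO, beside 34.2% and 33.2% of all genes. In the KO 3 were higher and 5 lower than in WT, beside 31.7% and 32.4%, which was not read as a departure from those shares. The list joins Smads with the inhibitors Ski, Skil, Smurf1, Smurf2 and Tob1, so its counts do not describe the transducing Smads alone. Smad9, a receptor-regulated Smad, had 54.8 and 52.3 CPM in the T48h rescue, 6.26 and 7.95 CPM in the T12h rescue, 1.54 and 1.19 CPM in the KO and 5.77 and 4.45 CPM in WT, which is the order of Smad6 with the KO lowest. Smad1 was higher in both rescues than in WT, by log2 fold changes of 1.05 ± 0.10 SE in the T48h rescue and 0.56 ± 0.10 SE in the T12h rescue (edgeR adjusted p = 1.4e-06 and 0.00199).

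Of 16 extracellular antagonists and modulators, 15 were tested, with 3 higher and 6 lower in the T48h rescue than in the KO, beside 34.2% and 33.2% of all genes, and 5 higher and 4 lower than in WT, beside 23.9% and 23.4% of all genes. With 15 genes tested, these counts were not read as a departure from those shares. Grem1 and Chrdl1, both secreted BMP antagonists, were low where Bmpr1b was low. Grem1 had 0.735 and 0.490 CPM in the T48h rescue, 12.5 and 13.9 CPM in the T12h rescue, 0.732 and 0.270 CPM in the KO and 21.2 and 22.5 CPM in WT. Nog, which encodes the antagonist noggin, was higher in the T48h rescue than in the KO (16.9 and 17.8 against 4.47 and 6.37 CPM, log2 fold change 1.69 ± 0.21 SE, edgeR adjusted p = 1.11e-05), and Fst, follistatin, was lower (10.3 and 11.7 against 93.8 and 85.5 CPM, log2 fold change -3.02 ± 0.11 SE, edgeR adjusted p = 1.01e-10).

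Of 12 other BMP-responsive genes, 11 were higher and 0 lower in the T48h rescue than in the T12h rescue, beside 24.9% and 25.3% of all genes. Against the KO, 7 were higher and 1 lower in the T48h rescue, beside 34.2% and 33.2% of all genes, and against WT 10 were higher and 0 lower, beside 23.9% and 23.4%. In the T12h rescue 3 were higher and 9 lower than in the KO, beside 32.8% and 32.1% of all genes, and in the KO 8 were higher and 2 lower than in WT, beside 31.7% and 32.4%. Bambi, a pseudoreceptor that dampens the pathway, had 135 and 148 CPM in the T48h rescue, 12.4 and 13.8 CPM in the T12h rescue, 21.6 and 29.5 CPM in the KO and 10.4 and 11.1 CPM in WT. Atoh8, a basic helix-loop-helix gene, had 16.8 and 15.6 CPM in the T48h rescue, 20.6 and 16.4 CPM in the T12h rescue, 1.83 and 2.02 CPM in the KO and 11.4 and 9.73 CPM in WT, with the KO below all other groups like Id2. The median log2 fold change of these 12 genes was 2.52 between the T48h and T12h rescues and 1.21 between the KO and WT, beside -0.03 and 0.004 over all genes. Of 9 other BMP-type ligands, 6 were tested, with 2 higher and 2 lower in the T48h rescue than in the KO, beside 34.2% and 33.2% of all genes. Gdf6 was among the higher ones (10.5 and 10.5 against 4.71 and 4.48 CPM, log2 fold change 1.18 ± 0.22 SE, edgeR adjusted p = 0.000339).

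**Figure D4:**
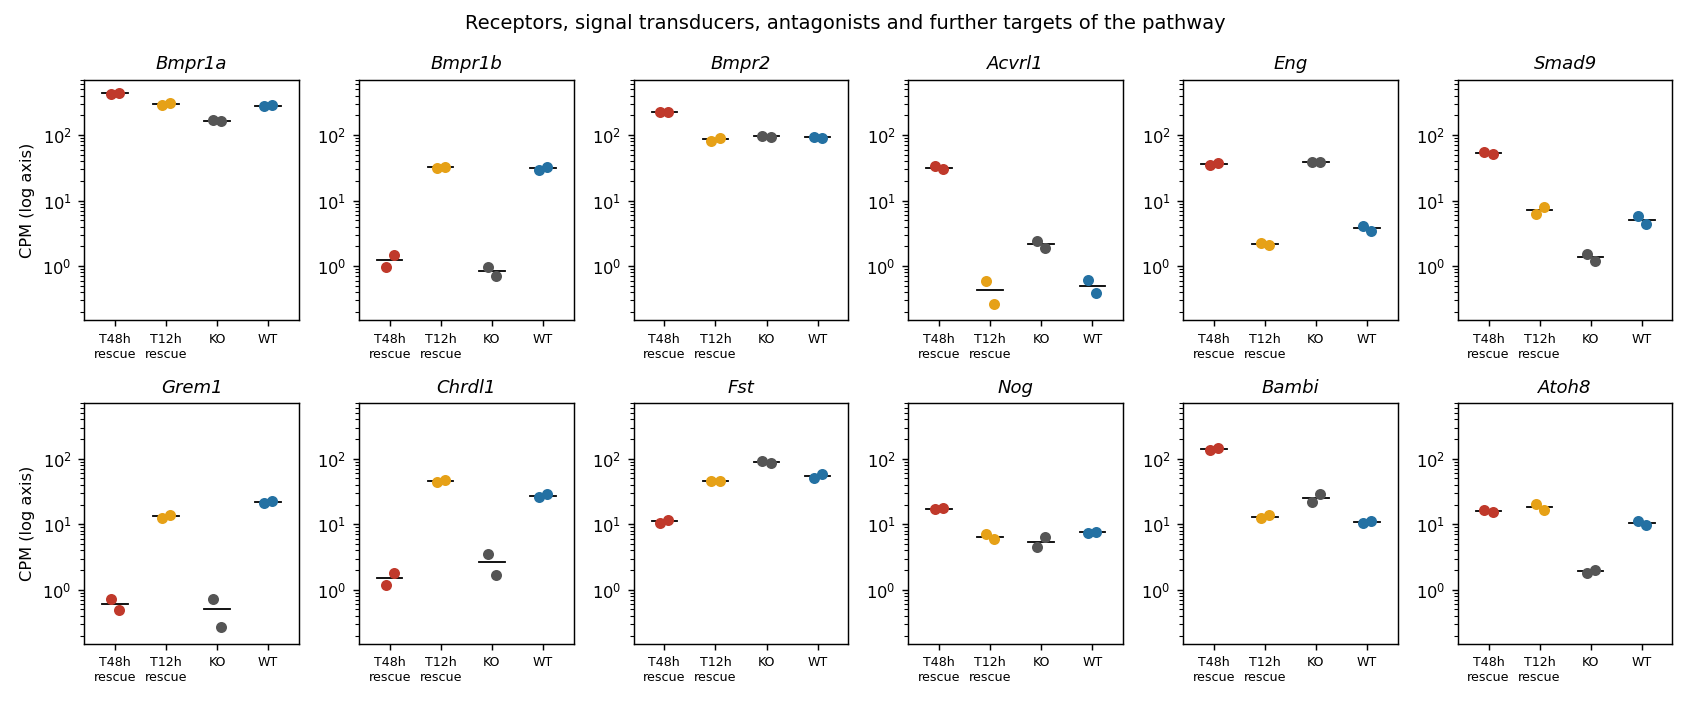
Level in CPM on a log axis of 12 further pathway genes chosen for display after their values were seen, with 1 point per library and a line at the group mean, for the T48h rescue, the T12h rescue, the KO and WT from left to right. Bmpr1b, Grem1 and Chrdl1 are high in the T12h rescue and WT and low in the T48h rescue and the KO, whereas Eng has the reverse pattern and Bambi and Acvrl1 are highest in the T48h rescue.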

How the data were processed

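Per the labels' protocols, RNA was extracted with an RNeasy kit with DNase treatment and libraries followed TruSeq. The submitters' processing notes name Cufflinks 2.2.1, TopHat2 2.1.1, deepTools, SAMtools 1.5 and the build mm10; strand setting and annotation were not given in the sources used here. Per the file headers, the authors deposited estimated counts per locus, and separately FPKM. The estimated counts were multiples of a fixed value per library, 0.630 to 1.29 by column, which was divided out (92.9% to 94.1% of values were whole within 0.02 fragments); they were then rounded. The columns name the group but neither run nor duplicate, so technical pairs were found by a chi-square of their counts within each group (per degree of freedom 1.60 to 1.83 within pairs and 9.07 to 16.5 between them) and summed. Loci without a gene name (3.16% to 6.12% of counts) and 8 loci marked as overfull stayed out, and 112 companion columns were not used.

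Tests used edgeR 4.0.16 in R 4.3.3 (quasi-likelihood F-test, TMM, filterByExpr, Benjamini-Hochberg over 16130 genes), with all 4 groups in 1 fit, 4 residual degrees of freedom and a common coefficient of variation of 12.6%; SEs were derived from the F statistic. The procedure was run on simulated data with far fewer changed genes than were called here. Scaling and error rates at the level of change seen here were therefore not tested. CPM use TMM-scaled library sizes. FPKM served to compare genes and, as log2(FPKM + 1) or log2(FPKM + 0.1), as alternatives with limma 3.58.1; DESeq2 1.42.0, other scalings and filters, and leaving out each library were further alternatives. The 10 genes were all named; of each pathway list, up to 3 genes with the largest change among those called at 5 CPM or more, of which some are printed. A gene named for one comparison is also given in the other groups. The 10 genes and all lists were chosen with earlier results of these data known. Where a marker symbol lay on several loci, the one with most counts was taken, and Myh6 lies in a joined locus and was not used.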

Additional observations from a re-analysis of the deposited data

Results flagged for a closer look

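For 9 of the 10 genes, the response of the KO clone to doxycycline differed between the 2 starting times. The test was that of the difference itself, the T48h rescue against the T12h rescue with edgeR's quasi-likelihood test. In the same comparison 50.2% of all genes were called in either direction. Both responses are measured against the same KO libraries. RNA was taken on day 6 in both rescues, so the start of doxycycline and the length of exposure cannot be told apart. Without a treated WT group, doxycycline and induced WDR5 cannot be told apart either. The difference in log2 fold change was 7.80 for Bmp5, 6.30 for Msx1, 4.17 for Msx2, 3.51 for Smad6, 3.27 for Bmp2, 3.23 for Bmp4, 1.53 for Id1, 0.76 for Bmp7 and -0.27 for Id2. For Bmp2, Bmp5, Msx1 and Msx2 the rescues lay on opposite sides of the KO, and each of those effects passed the test, with the T48h rescue above the KO and the T12h rescue below it. For Bmp4, Smad6 and Id2 both rescues were above the KO. For Id3 the difference was 0.08 ± 0.08 SE (edgeR adjusted p = 0.449).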

How the results depend on the processing

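Of 60 gene comparisons, 48 were called, and 43 of these kept their direction and call in all 20 alternatives, 8 of which leave out a library; none of the 48 reversed. In 18 instances a comparison that was not called passed the test under an alternative: 10 for Bmp7 and 6 for Id1 in the T12h rescue against the KO, and 1 each for Bmp7 in the KO and Id2 in the T48h rescue against WT. The 5 others are given beside their genes. Signs turned only among comparisons that were not called. Id3 in the T48h rescue against WT was 0.0082 with RLE scaling and with DESeq2, 0.0113 with scaling without chromosome 8, 0.0035 with limma-voom, 0.0006 with a filter of 1 CPM, 0.0204 with 1 technical column, and -0.143 to 0.0491 when a library was left out. Id3 in the T48h against the T12h rescue was -0.0023 with upper-quartile scaling and -0.0143 to 0.1301 when a library was left out. Smad6 in the T12h rescue against WT was -0.10 and -0.1265 with limma on FPKM with pseudocounts 1 and 0.1. When a library was left out, that value was -0.0756 to 0.1622, Id3 in the T12h rescue against WT was -0.178 to 0.0153, and Id1 in the KO against WT was -0.0373 to 0.1189. Genes called over the whole table in the T12h rescue against WT numbered 2261, and 1070 to 2571 when a library was left out: 1217 without T12h library a, 1316 without T12h library b and 1070 without WT library a. Upper-quartile scaling moved the median of all genes by -0.14, -0.12 and -0.08 in the T48h rescue against the KO, WT and the T12h rescue, and gave 3053 genes higher and 4791 lower against WT in place of 3858 and 3769. On log2(FPKM + 1), which understates low genes, Bmp2 in the KO against WT was 1.12 and Bmp5 in the T12h rescue against the KO -0.97. No paired analysis was possible because the columns carry no replicate numbers. With 2 libraries a group and a single clone, the spread between clones or differentiation rounds is not measured.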
